A study of Mus musculus with 6 samples.

Results

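The unfolded protein response, the program by which a cell adjusts the folding capacity of its endoplasmic reticulum (ER), was examined through 10 genes in fresh and vitrified–warmed mouse blastocysts. The genes were Ern1, Eif2ak3 and Atf6, which encode the stress sensors of the ER membrane, Xbp1, Atf4 and Ddit3, which encode transcription factors, Trib3, which encodes a pseudokinase, and Hspa5, Hsp90b1 and Calr, which encode ER chaperones. They were picked by gene symbol, and all 10 were found among the 28879 genes of the deposited table. Embryos from C57BL/6JNarl females aged 6 to 8 weeks were grown from the zygote in human tubal fluid for 3 days, and the design text of the series names the embryos B6CBF1. The females had been superovulated with pregnant mare serum gonadotrophin and then 5 IU of human chorionic gonadotrophin, a treatment that both groups share. The group labelled Cryo was vitrified and warmed with a Cryotech kit under a protocol for human embryos, and the group labelled Fresh was not. Each group was 1 pool of blastocysts split into 3 aliquots, with 1 RNA-Seq library for each aliquot, so that p-values measure the spread between aliquots and none covers the spread between pools, litters or embryos.

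In the resting cell the chaperone that Hspa5 encodes, BiP, binds the luminal side of the sensors. When unfolded proteins build up, IRE1, the product of Ern1, splices the Xbp1 mRNA, PERK, the product of Eif2ak3, phosphorylates eIF2alpha and so favors translation of Atf4, and ATF6 is cut by proteases in the Golgi to release a transcription factor. XBP1 and ATF6 drive chaperone and degradation genes, while ATF4 drives Ddit3, Trib3 and genes of amino acid supply. Splicing of Xbp1, phosphorylation and cleavage are not seen in counts per gene, so the values below are transcript levels only.

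The fragments that the authors assigned to exons numbered 9093411 to 11843562 per library. As a share of the library total implied by the FPKM, this was 63.2% to 63.6% in fresh libraries and 54.4% to 56.6% in vitrified–warmed libraries, and the part of this difference in the results was not tested. Fresh replicate 1 stood apart with fragments in 20086 genes, against 15558 to 17764 in the other libraries. Each of 7 trophectoderm and 7 inner cell mass markers was detected. The trophectoderm markers summed to 1425 to 1495 CPM in fresh and 1655 to 1661 CPM in vitrified–warmed libraries. Of the 7, 5 were higher and 1 lower, beside 31.6% and 32.8% of all genes tested. One of the higher ones, Elf5, had 4, 2 and 3 fragments in fresh and 29, 34 and 50 in vitrified–warmed libraries. It had enough fragments for the test in the vitrified–warmed group only, so its call supports nothing here. The most abundant of the 7 were Krt18, with means of 538 and 652 CPM, and Krt8, with 369 and 414 CPM. The lower one was Cdx2, with 150 and 134 CPM. The inner cell mass markers summed to 783 to 819 and 867 to 894 CPM, with 2 of the 7 higher and 1 lower. The part of these shifts in the results was not tested. The summed level of 8 cumulus and granulosa markers was 1.86 to 6.07 CPM in fresh and 1.87 to 2.80 CPM in vitrified–warmed libraries, and that of 6 oviduct markers was 1.51 to 5.24 and 3.45 to 3.80 CPM. The 7 blood markers summed to 4.11 to 4.87 CPM in fresh and 14.1 to 19.2 CPM in vitrified–warmed libraries. This sum was above the level of Ddit3 or Trib3 in every vitrified–warmed library. Of the 7, 3 were tested and all 3 were higher. One of them, Hba-a1, had 5, 10 and 7 fragments in fresh and 49, 61 and 68 in vitrified–warmed libraries. It had enough fragments for the test in the vitrified–warmed group only, so its call supports nothing here. The part of the blood markers in the results was not tested. No marker of these lists was at 0 in all 6 libraries. CPM here are exon fragments scaled to the library total after TMM normalization, a correction for the composition of each library.

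The response did not move as a block. Transcripts of the chaperones Hspa5, Hsp90b1 and Calr, of Xbp1 and of the sensor Eif2ak3 were lower in vitrified–warmed blastocysts, and transcripts of Atf4, Ddit3 and Trib3 were higher. Of the 10 genes, 5 were lower and 3 higher at an adjusted p under 0.05 in edgeR's quasi-likelihood test, where 32.8% of all 12774 genes tested were lower and 31.6% higher. Together 8 of 10 passed, beside 64.4% of all genes, so that the number of changed genes as such was near the background. The same 8 genes had no overlap between the 3 libraries of each group, as had 68.6% of all genes (33.5% higher and 35.1% lower). The median log2 fold change of the 10 genes was -0.15, beside -0.0011 for all genes tested. The study itself set thresholds of a 1.5-fold change, p under 0.05 without adjustment and a mean of more than 0.5 FPKM. With these set on edgeR's fold changes and p-values, 1 of the 10 was lower (Eif2ak3) and 2 were higher (Ddit3 and Trib3), beside 11.6% lower, 9.17% higher and 20.7% in either direction among all genes. All 10 passed the filter on low counts in both groups, with at least 19 fragments in every library.

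**Figure D1:**
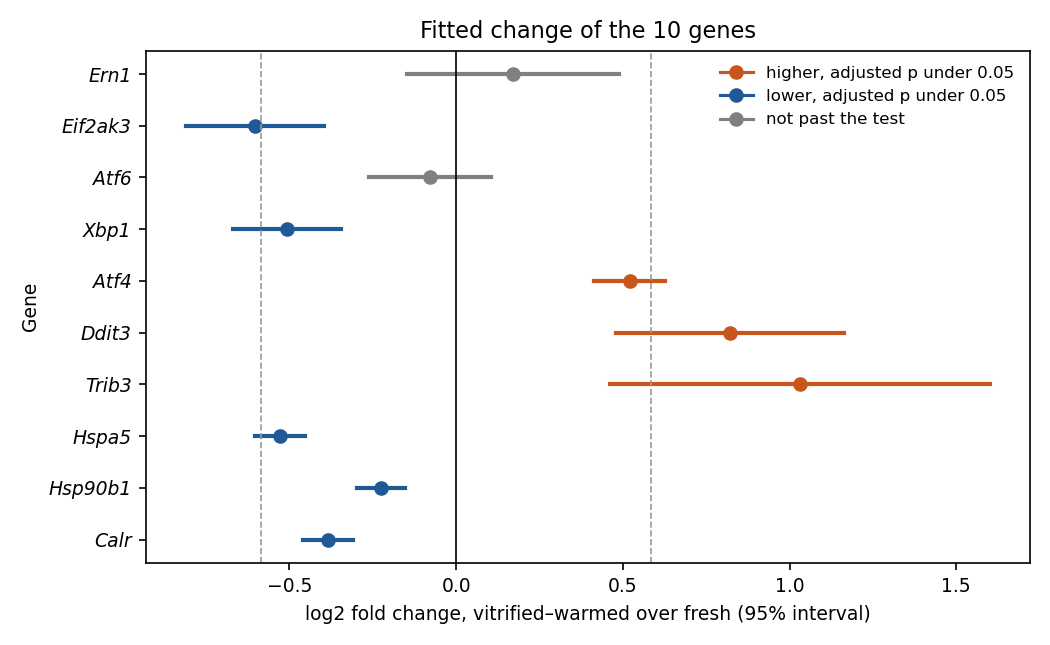
Fitted log2 fold change of each of the 10 genes, vitrified–warmed over fresh, on the horizontal axis, with its 95% interval from edgeR's quasi-likelihood fit (3 libraries per group). Dashed lines mark a 1.5-fold change. Hspa5, Hsp90b1, Calr, Xbp1 and Eif2ak3 lie below 0, Atf4, Ddit3 and Trib3 above 0, and the intervals of Ern1 and Atf6 include 0.

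The chaperones were the most abundant of the 10 transcripts and all 3 fell. Hspa5 (GRCm38, chromosome 2, 34772090 to 34776529) encodes BiP, the HSP70 of the ER lumen. It had 722, 752 and 743 CPM in the fresh libraries and 523, 498 and 517 CPM in the vitrified–warmed libraries. The groups were well apart, since the lowest fresh library exceeded the highest vitrified–warmed library. The log2 fold change was -0.53 (standard error, SE, 0.03 and adjusted p = 1.07e-08 from edgeR), which is 0.693 of the fresh level (95% interval 0.659 to 0.730). Calr (chromosome 8, 84842088 to 84846931) encodes calreticulin, which binds calcium and folds glycoproteins. Its level was 518, 537 and 534 CPM in fresh and 408, 413 and 397 CPM in vitrified–warmed libraries. These values did not overlap either, and the log2 fold change was -0.38 (SE 0.04, adjusted p = 2.33e-07 from edgeR). Hsp90b1 (chromosome 10, 86690841 to 86705444) encodes GRP94, the HSP90 of the ER. With 931, 958 and 975 CPM in fresh and 829, 793 and 828 CPM in vitrified–warmed libraries, it showed the smallest fall of the 3, a log2 fold change of -0.22 (SE 0.03, adjusted p = 3.07e-05 from edgeR). Hspa5, Calr and Hsp90b1 together took 0.219% to 0.222% of exon fragments in fresh and 0.172% to 0.176% in vitrified–warmed libraries. A fall in a pooled embryo sample can come from fewer cells of a type or from less RNA per cell, and these cannot be told apart here. Calr has a processed pseudogene in the GENCODE annotation that is not an entry of the table used, and how fragments shared with it were counted is not given in the sources used here.

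The promoters of these 3 genes are shown because they carry the ER stress element (ERSE), the textbook binding motif of ATF6 with NF-Y, and because the genes fell together. The 250 bases before the start site are given 5′ to 3′ on the strand of the gene, from RefSeq on GRCm38.p6, with each ERSE match in capitals. The regions are chr2:34771840-34772089 on the plus strand for Hspa5, chr10:86705445-86705694 on the minus strand for Hsp90b1 and chr8:84846932-84847181 on the minus strand for Calr.
Hspa5: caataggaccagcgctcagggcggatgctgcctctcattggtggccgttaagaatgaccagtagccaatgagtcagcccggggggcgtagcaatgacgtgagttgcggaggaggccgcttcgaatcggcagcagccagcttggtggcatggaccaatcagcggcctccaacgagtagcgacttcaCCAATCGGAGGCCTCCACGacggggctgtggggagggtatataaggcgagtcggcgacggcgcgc
Hsp90b1: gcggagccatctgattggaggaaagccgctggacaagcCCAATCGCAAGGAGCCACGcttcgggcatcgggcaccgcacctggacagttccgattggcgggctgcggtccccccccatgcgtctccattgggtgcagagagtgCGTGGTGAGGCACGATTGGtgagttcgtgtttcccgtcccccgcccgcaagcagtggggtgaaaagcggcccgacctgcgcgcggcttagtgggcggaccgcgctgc
Calr: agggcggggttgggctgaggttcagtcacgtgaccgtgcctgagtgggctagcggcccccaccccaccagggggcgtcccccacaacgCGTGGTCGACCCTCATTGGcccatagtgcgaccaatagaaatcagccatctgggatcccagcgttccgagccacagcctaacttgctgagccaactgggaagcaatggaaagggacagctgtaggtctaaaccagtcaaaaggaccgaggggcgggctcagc
The motif searched was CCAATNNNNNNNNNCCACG on both strands. Hspa5 holds 1 match from 65 to 47 bases before the start site. Hsp90b1 holds 2, from 212 to 194 and, on the other strand, from 107 to 89 bases before it, and Calr holds 1 on the other strand, from 162 to 144 bases before it. Of all 32851 promoter windows (250 bases before and 50 after the start), 39 hold the motif, or 0.119%. Windows were given for 9 of the 10 genes, all but Atf6, and the other 6 of these 9 hold no such letters. A match of letters describes the sequence and does not show that a factor binds there.

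Other genes with the same motif did not all follow. In the wider lists described below, 7 genes hold an ERSE match and 6 of them were tested, of which Creld2, Dnajc3, Pdia6 and Syvn1 were lower and none was higher. Among the remaining genes of the table with an ERSE match, 11 were tested, of which 6 were higher and 2 lower, with a median log2 fold change of 0.38. These counts are few, and of all genes tested 31.6% were higher and 32.8% lower. The 2 related motifs of this response, ERSE-II (ATTGGNCCACG, in 0.0365% of all windows) and the unfolded protein response element (TGACGTGG, in 0.676%), matched in none of the 9 windows. They share the letters CCACG, or its complement CGTGG, with the ERSE. In the wider lists 3 tested genes hold the second of these motifs, and all 3 were lower (Txndc5, Ube2j1 and Vcp). Of 86 other tested genes with it, 34 were lower (39.5%) and 17 higher (19.8%), beside 32.8% and 31.6% of all genes. The 2 tested wider genes with ERSE-II were not past the test, and of 6 other tested genes with it 4 were higher.

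**Figure D2:**
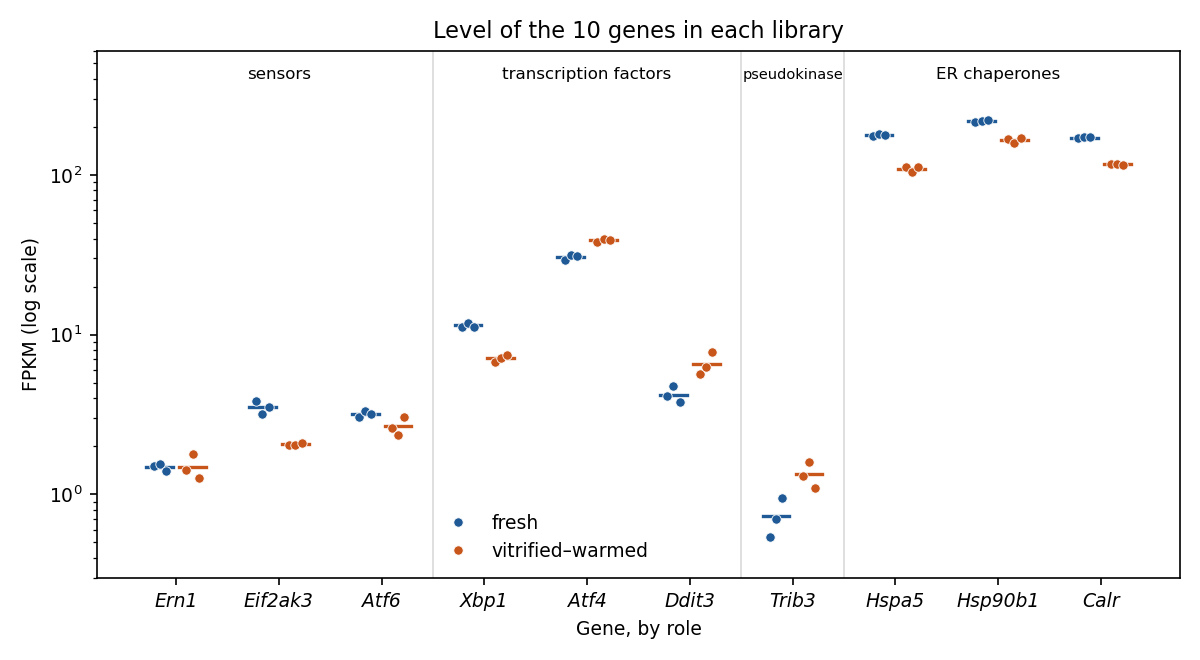
FPKM of the 10 genes (log axis) in each of the 3 fresh and 3 vitrified–warmed libraries, with 1 point per library and a bar at the mean, in order of role. The chaperones lie between 104.8 and 221 FPKM in every library and Trib3 between 0.542 and 1.61, and fresh points lie above vitrified–warmed points for Eif2ak3, Xbp1 and the chaperones.

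The sensors were scarce and only Eif2ak3 changed past the test. Eif2ak3 (chromosome 6, 70844484 to 70905240), the gene for PERK, had 27.5, 23.3 and 25.4 CPM in fresh and 16.4, 16.7 and 17.0 CPM in vitrified–warmed libraries. Every fresh library was above every vitrified–warmed library. The log2 fold change was -0.60 (SE 0.10, adjusted p = 5.65e-05 from edgeR), the largest fall among the 10 genes. Ern1 (chromosome 11, 106397620 to 106487796), the gene for IRE1alpha, had 9.38, 9.83 and 8.91 CPM in fresh and 10.1, 12.8 and 8.98 CPM in vitrified–warmed libraries. The groups overlapped, and the 95% interval of the log2 fold change ran from -0.15 to 0.49 (value 0.17, adjusted p = 0.330 from edgeR), so that a rise to 1.40 times the fresh level is within it. The sign of this value turned with limma on unscaled FPKM, to -0.0019, and leaving out 1 library moved it from 0.0257 (without vitrified–warmed replicate 2) to 0.30 (without vitrified–warmed replicate 3). Atf6 (chromosome 1, 170704457 to 170867771) had 37.4, 41.6 and 40.0 CPM in fresh and 36.5, 33.6 and 42.3 CPM in vitrified–warmed libraries. The highest library of all was a vitrified–warmed one, and the 95% interval of the log2 fold change was -0.26 to 0.10 (value -0.08, adjusted p = 0.438 from edgeR). Without vitrified–warmed replicate 2 the value was -0.0068, and without replicate 3 it was -0.16. The interval of Ern1 leaves room for a rise near the 1.43-fold of Atf4, and that of Atf6 for a fall to 0.834 of the fresh level. No test compared the sensors with each other.

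The transcription factors went both ways. Xbp1 (chromosome 11, 5520641 to 5525993) had 39.5, 42.9 and 40.0 CPM in fresh and 27.2, 29.2 and 29.7 CPM in vitrified–warmed libraries. The groups did not overlap, and the log2 fold change was -0.51 (SE 0.08, adjusted p = 2.95e-05 from edgeR), close in size to that of Hspa5. Counts per gene do not separate its spliced from its unspliced mRNA. Atf4 (chromosome 15, 80255184 to 80257545), the central factor of the integrated stress response, had 80.1, 87.5 and 85.5 CPM in fresh libraries. In vitrified–warmed libraries it had 118, 125 and 121 CPM, all above the fresh values. Its log2 fold change was 0.52 (SE 0.05, adjusted p = 4.40e-07 from edgeR), or 1.43 times the fresh level (95% interval 1.33 to 1.54).

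Ddit3 and Trib3, textbook targets of ATF4, showed the largest rises among the 10 genes. Ddit3 (chromosome 10, 127290793 to 127296288), which encodes CHOP, a factor linked to cell death under lasting ER stress, had 6.16, 7.26 and 5.74 CPM in fresh and 9.71, 10.9 and 13.2 CPM in vitrified–warmed libraries. The vitrified–warmed libraries were spread more widely but all lay above the fresh ones, and the log2 fold change was 0.82 (SE 0.16, adjusted p = 3.31e-04 from edgeR). The end of Ddit3 shares 68 bases with the end of Mars, a gene on the opposite strand, and whether strand was used in counting is not given in the sources used here. Mars was lower, with a log2 fold change of -0.61 (adjusted p = 1.67e-06 from edgeR). Trib3 (chromosome 2, 152337425 to 152344060), whose product binds ATF4 and CHOP and damps their activity, rested on 19, 26 and 36 fragments in fresh and 51, 55 and 45 in vitrified–warmed libraries. In CPM these were 1.75, 2.30 and 3.08 against 4.76, 5.98 and 4.0. No fresh library reached a vitrified–warmed one, though the nearest were close, and the log2 fold change was 1.03 (SE 0.27, adjusted p = 0.00325 from edgeR). The 95% interval, 1.38 to 3.03 times the fresh level, was the widest of the 10.

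Of the 9 genes with a promoter window, Trib3 was also the only one whose window holds the C/EBP-ATF response element (CARE). This is the kind of site through which ATF4 acts with a C/EBP partner. The match, in capitals, lies on the other strand from 15 to 22 bases after the start site, in chr2:152344028-152344057 on the minus strand (RefSeq, GRCm38.p6).
Trib3: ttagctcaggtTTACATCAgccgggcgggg
The letters searched were TGATGNAA on both strands, which 3.97% of all windows hold. The window of Ddit3 does not hold them. Of the 6 tested genes of the wider lists with a match, Atf3 was higher, Nupr1 and Txndc5 were lower and 3 were not past the test. Atf3 and Nupr1 had enough fragments in 1 group only, the one where each was high, so these calls support nothing here. Of 237 other tested genes with the letters, 61 were higher and 83 lower, beside 31.6% and 32.8% of all genes tested.

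Levels of different genes can be compared only per length, so the order of the 10 genes was taken from FPKM, which divides fragments by exon length and by the library total. In fresh blastocysts the order was Hsp90b1 at 218 ± 3.40 FPKM (SD, n = 3), Hspa5 at 178 ± 1.84, Calr at 172 ± 1.41, Atf4 at 30.7 ± 1.07, Xbp1 at 11.4 ± 0.413, Ddit3 at 4.20 ± 0.494, Eif2ak3 at 3.52 ± 0.328, Atf6 at 3.19 ± 0.137, Ern1 at 1.48 ± 0.0706 and Trib3 at 0.729 ± 0.202. Ddit3 and Eif2ak3, and Eif2ak3 and Atf6, overlapped in their libraries, and the other neighbors did not. In vitrified–warmed blastocysts Calr, at 117 ± 1.24 FPKM (SD, n = 3), stood above Hspa5 at 109 ± 4.06, and Atf6 at 2.67 ± 0.348 above Eif2ak3 at 2.06 ± 0.0467, with no overlap in either case. Ddit3 at 6.59 ± 1.10 FPKM came within the range of Xbp1 at 7.13 ± 0.342, and Trib3 at 1.34 ± 0.254 within that of Ern1 at 1.49 ± 0.258. Hsp90b1 at 165 ± 6.10 and Atf4 at 39.1 ± 0.839 kept the first and the fourth place. FPKM are relative to totals that include fragments outside exons, and on this unscaled scale the median log2 fold change of all genes was -0.13, by which the chaperones, Xbp1 and Eif2ak3 lie lower and the rises lie smaller than in CPM.

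A further 74 genes of the response were listed by role, of which 64 had enough fragments for the test. Of these, 13 were higher and 28 lower, beside 31.6% and 32.8% of all genes. At the study's thresholds 3 were higher and 10 lower, beside 9.17% and 11.6% of all genes. With limma on log2(FPKM + 0.5), 8 were higher and 36 lower, beside 20.7% and 43.4% of all genes in the same fit. In each list the genes named with values are the largest changes past the test above 5 FPKM without overlap between groups, 6 well-known genes of the response whatever their values, and a few, each marked so, that were chosen after their values were seen.

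**Figure D3:**
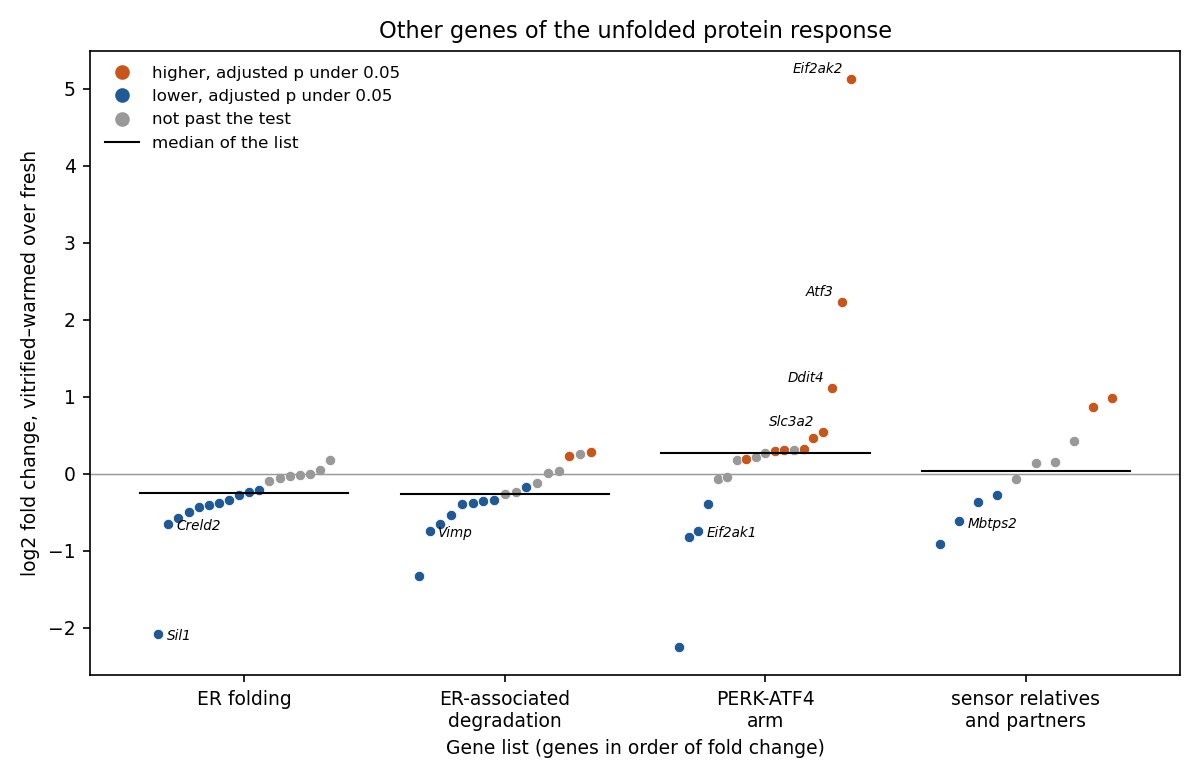
Fitted log2 fold change, vitrified–warmed over fresh, of the 64 tested genes of 4 further lists, ordered within each list, with the median of each list as a line. Among all genes tested, 31.6% were called higher and 32.8% lower. Of 18 ER folding genes, 11 are called falls and none is a called rise. Of 19 genes of the PERK-ATF4 arm, 9 are rises and 4 falls. Without 3 genes that passed the filter on low counts through 1 group only, this arm holds 7 rises and 3 falls among 16 genes.

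Among genes for folding enzymes and co-chaperones of the ER, each change past the test was a fall, as for Hspa5. Of 18, all tested, 11 were lower, none was higher and 7 were not past the test, with a median log2 fold change of -0.26. No gene of the list was higher at an unadjusted p under 0.05 either. With DESeq2 none was higher and 11 were lower, beside 31.1% higher and 30.8% lower among all genes. With limma on log2(FPKM + 0.5) none was higher and 14 were lower, beside 20.7% higher and 43.4% lower among all genes. In edgeR without vitrified–warmed replicate 2, 1 was higher. Creld2, an ER protein induced by stress in mouse cells, had 63.9, 59.5 and 62.7 CPM in fresh and 37.8, 44.6 and 36.8 CPM in vitrified–warmed libraries, with no overlap and a log2 fold change of -0.65 (SE 0.07, adjusted p = 2.21e-06 from edgeR). Hyou1, a large HSP70 relative that exchanges the nucleotide of BiP, had 90.6, 97.0 and 94.2 against 62.2, 63.7 and 63.3 CPM, a log2 fold change of -0.58 (SE 0.05, adjusted p = 2.29e-07 from edgeR). Both genes thus fell by about as much as Hspa5. Ppib, a prolyl isomerase of the ER, had a log2 fold change of -0.43 (adjusted p = 7.99e-06 from edgeR), and it shares 1454 bases with Snx22 on the opposite strand, whose fitted value was -5.18 at a mean of 0.743 FPKM. Sil1, the other nucleotide exchange factor of BiP, was singled out after its values were seen. Its level was 8.83, 9.12 and 7.11 CPM in fresh and 1.49, 2.28 and 2.13 CPM in vitrified–warmed libraries, with a log2 fold change of -2.08 (SE 0.22, adjusted p = 9.92e-07 from edgeR). The fall was not general in the list, since Dnajb9, a target of XBP1, had 25.9, 31.0 and 32.4 CPM in fresh and 31.2, 32.3 and 29.3 CPM in vitrified–warmed libraries, with overlapping groups (log2 fold change 0.05, adjusted p = 0.644 from edgeR, and of opposite sign without fresh replicate 1 and in limma).

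Genes of ER-associated degradation, which moves misfolded proteins to the proteasome, also held more falls than rises. Of 18 listed, 17 were tested, 9 were lower (52.9%), 2 higher (11.8%) and 6 not past the test, with a median of -0.27. The shares over all genes tested were 32.8% lower and 31.6% higher. Vimp, which encodes the selenoprotein S of the retrotranslocation complex, had 33.3, 35.7 and 36.4 CPM in fresh and 21.7, 19.7 and 21.7 CPM in vitrified–warmed libraries (log2 fold change -0.74, adjusted p = 2.11e-06 from edgeR). Nploc4, a cofactor of the VCP segregase, had a log2 fold change of -0.54 (adjusted p = 1.23e-06) and Derl2, a channel component, of -0.39 (adjusted p = 0.00106, both from edgeR). Derl1, a relative of Derl2, had 23.7, 25.4 and 27.0 against 31.8, 30.4 and 27.5 CPM, and its log2 fold change of 0.23 (adjusted p = 0.0305 from edgeR) was no longer past the test without fresh replicate 1 (0.19, adjusted p = 0.116), without fresh replicate 2 (0.24, adjusted p = 0.0713), without vitrified–warmed replicate 1 (0.20, adjusted p = 0.107) or with limma on unscaled log2 FPKM (0.0588, adjusted p = 0.480). Herpud1, an adaptor of the degradation complex, had 9.38, 8.86 and 10.02 CPM in fresh and 12.6, 11.1 and 10.04 CPM in vitrified–warmed libraries (log2 fold change 0.25, adjusted p = 0.114 from edgeR, or 0.35 and 0.0499 without vitrified–warmed replicate 3).

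Genes of the PERK-ATF4 arm, which the cell also uses for other stresses under the name integrated stress response, held more rises than falls. Of 25 listed, 19 were tested, 9 were higher (47.4%), 4 lower (21.1%) and 6 not past the test, with a median of 0.27. Among all genes tested, 31.6% were higher and 32.8% lower. Atf3, Eif2ak2 and Nupr1 passed the filter on low counts through 1 group only, so they had to differ. Without them 16 were tested, of which 7 were higher, 3 lower and 6 not past the test, with a median of 0.24. Ddit4, an inhibitor of mTORC1 that stress induces, had 11.6, 10.01 and 11.1 CPM in fresh and 21.3, 27.2 and 22.1 CPM in vitrified–warmed libraries. It was higher in every vitrified–warmed library, with a log2 fold change of 1.11 (SE 0.12, adjusted p = 1.29e-06 from edgeR). Slc3a2, the heavy chain of amino acid exchangers, rose by 0.53 on the log2 scale (adjusted p = 4.92e-07) and Ppp1r15b, which encodes the constitutive targeting subunit of the eIF2alpha phosphatase, by 0.47 (adjusted p = 8.80e-07, both from edgeR). Ppp1r15a, the subunit that stress induces, went against this with 19.6, 21.5 and 22.0 CPM in fresh and 15.7, 17.5 and 15.0 CPM in vitrified–warmed libraries, a log2 fold change of -0.39 (adjusted p = 0.00331 from edgeR). Atf3, a factor induced downstream of ATF4, rested on 6, 3 and 2 fragments in fresh and 17, 15 and 17 in vitrified–warmed libraries. Nupr1, added after its values were seen, had 32, 37 and 36 against 7, 6 and 7 fragments. Since Atf3 and Nupr1 passed the filter through 1 group only, neither change supports anything here. Asns, asparagine synthetase and a standard ATF4 target, had 19.1, 24.1 and 21.1 against 24.6, 23.0 and 27.1 CPM, with overlapping groups (log2 fold change 0.22, adjusted p = 0.0721 from edgeR). This adjusted p was 0.0379 with scaling to housekeeping genes, 0.0499 with total counts, 0.0293 among genes above 1 FPKM, 0.0300 without fresh replicate 2 and 0.0262 without vitrified–warmed replicate 2. Phgdh, the first enzyme of serine synthesis and likewise known as an ATF4 target, fell from 201, 200.3 and 193 to 110.2, 112 and 113 CPM (log2 fold change -0.83, adjusted p = 1.12e-09 from edgeR). Chac1, a glutathione-degrading enzyme, had 8, 0 and 3 fragments in fresh and 7, 6 and 5 in vitrified–warmed libraries, too few for the test.

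Phosphorylation of eIF2alpha is shared by 4 kinases, of which PERK is the one in the ER. Eif2ak1, for the kinase that senses heme and mitochondrial stress, had 44.9, 49.5 and 50.8 CPM in fresh and 29.4, 30.2 and 27.1 CPM in vitrified–warmed libraries, a log2 fold change of -0.75 (adjusted p = 8.36e-07 from edgeR) beside the -0.60 of Eif2ak3. Eif2ak4, for the kinase of amino acid shortage, did not pass the test (-0.04, adjusted p = 0.734 from edgeR). Eif2ak2, for the kinase that double-stranded RNA activates, had 2, 3 and 0 fragments in fresh and 58, 59 and 55 in vitrified–warmed libraries. Its mean was only 0.349 FPKM. It passed the filter on low counts through the vitrified–warmed group only, so it had to differ and its counts support nothing here. Eif2ak4 and Eif2ak2 were added after their values were seen.

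Relatives and partners of the sensors showed no common direction. Of 13 listed, 10 were tested, 2 were higher, 4 lower and 4 not past the test, with a median of 0.03. Over all genes tested the shares were 31.6% higher and 32.8% lower. The log2 fold changes of the 10 ran from -0.91 to 0.99. At the study's thresholds 2 were higher and 2 lower, beside 9.17% and 11.6% of all genes. Rtcb, the ligase that joins the Xbp1 exons after IRE1 has cut them, had 57.2, 62.1 and 63.8 CPM in fresh and 55.6, 45.1 and 49.4 CPM in vitrified–warmed libraries, with a log2 fold change of -0.28 (adjusted p = 0.00379 from edgeR). Mbtps1 and Mbtps2, the Golgi proteases that release ATF6, had log2 fold changes of -0.37 and -0.62 (adjusted p = 5.39e-04 and 2.47e-06 from edgeR), and were named after their values were seen. Mbtps2 went from 46.6, 45.0 and 49.0 to 30.9, 29.3 and 31.2 CPM, without overlap, while Atf6 itself was not past the test.

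Some of the named genes overlap a gene on the opposite strand, so that fragments of both may not be told apart. Derl2 shares 231 bases with Mis12 (log2 fold change 0.27), Ppp1r15a shares 796 with Tulp2, and Eif2ak1 shares 14 with Aimp2 (log2 fold change -0.30) and lies over Ankrd61, while Tulp2 and Ankrd61 had mean levels of only 0.0194 and 0.0181 FPKM.

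The genes that the deposited table assigns to the KEGG pathway of protein processing in the ER, a set looked up after the data were seen, gave a broader frame. Without the 10 genes it holds 165 genes, of which 148 were tested, 60 were lower and 29 higher, with a median of -0.0502. Among the tested genes 40.5% were lower and 19.6% higher, beside 32.8% and 31.6% of all genes. The folding list, with 61.1% lower and none higher, had the larger share of falls of these sets, and the sets share genes.

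**Figure D4:**
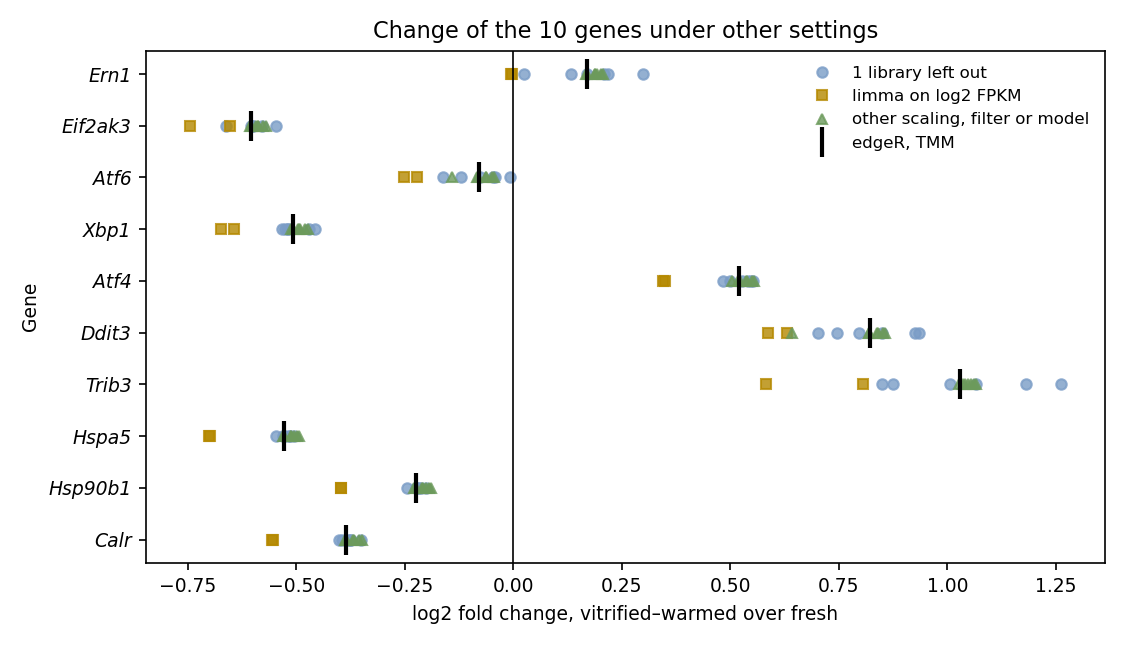
Log2 fold change of the 10 genes, vitrified–warmed over fresh, under 15 other settings and in the edgeR fit reported above (black bar). Points for 1 library left out, limma on log2 FPKM and other scalings, filters or models lie on the same side of 0 for 9 of the 10 genes, and Ern1 reaches -0.0046 with limma.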

How the data were processed

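RNA-Seq libraries were made with the Ovation SoLo kit and sequenced as paired-end reads. Trimming, alignment to GRCm38 and counting of fragments per gene were done by the authors in CLC Genomics Workbench, and the deposited counts are whole numbers without normalization. The deposited FPKM divide these counts by exon length and by a library total that exceeds the exon fragments. The annotation release and the use of strand are not given in the sources used here. The table also holds the authors' fold changes and p-values, which were not used. Of its 28887 entries, 8 name no gene, hold no fragments and were left out.

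Counts of 12774 genes that passed filterByExpr were tested with edgeR 4.0.16 (R 4.3.3, TMM, quasi-likelihood test with robust fit) on all 6 libraries with the group as the only term. The Benjamini–Hochberg adjustment ran over these 12774 genes. The 95% intervals come from the same fit. The standard error is the fold change divided by the root of the F statistic. Alternatives were DESeq2 1.42.0, limma 3.58.1 on log2(FPKM + 0.5) and log2(FPKM + 0.1), scaling to 12 housekeeping genes or to total counts, other filters, an offset for exon length, a replicate block and each library left out. The edgeR step was tested on simulated data. Libraries of a group differed by more than sampling noise, with a chi-square per degree of freedom of 1.55 to 4.63.

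The 10 genes and the gene lists were chosen with earlier results of these data known. Named genes of the wider lists are up to 3 rises and 3 falls per list without overlap, called by edgeR and averaging over 5 FPKM, besides Ppp1r15a, Atf3, Dnajb9, Herpud1, Asns and Chac1. Motifs were searched in RefSeq promoter windows with Python 3.11.15. Of the 74 genes of the wider lists, 62 had a window.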

Additional observations from a re-analysis of the deposited data

How the results depend on the processing

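The 5 falls and 3 rises among the 10 genes were called under each of 15 alternatives (DESeq2, other scalings and filters, limma, the exon length offset, the replicate block and each library left out). At the study's thresholds 13 of the 64 tested wider genes were called, with 3 higher and 10 lower, beside 9.17% and 11.6% of all genes. Of the 10 genes 3 were called, 1 of them lower, since Hspa5, Calr, Hsp90b1, Xbp1 and Atf4 changed by less than 1.5-fold in edgeR. On unscaled mean FPKM, Hspa5 and Xbp1 differed by 1.62-fold and 1.6-fold. With limma on log2(FPKM + 0.5) or log2(FPKM + 0.1), 8 wider genes were higher and 36 lower, on a scale whose median over all genes was -0.13 or -0.16. Of all 12774 genes, 2647 or 2736 were higher and 5542 or 5528 lower. Ern1 turned to -0.0019 and -0.0046 and Dnajb9 to -0.106 and -0.110 in these fits. Dnajb9 ranged from -0.0396 to 0.11 with 1 library left out, and the count of wider genes called from 37 to 42. The 37 came without vitrified–warmed replicate 1, where 3741 of all 13320 genes were higher and 3913 lower. The 42 came without replicate 2 (4148 and 4343 of 13319) or replicate 3 (3916 and 4068 of 13303) of the same group.

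With the replicate number as a block, 8 of the 10 genes and 40 of the 64 tested wider genes were called. Of all 12774 genes, 3890 were higher and 4073 lower in that fit. No shared deviation was seen in same-numbered libraries (correlations of -0.0514, -0.0016 and -0.0249). With 3 libraries per group this cannot tell whether aliquots of the same number were handled together. Few fragments stand behind Atf3, Chac1, Nupr1, Eif2ak2 and Trib3, and for Ern1 and Atf6 the 95% intervals leave changes of up to 1.40-fold and to 0.834 of the fresh level.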
